A study of Homo sapiens with 15 samples.

Results

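iMGCs are Müller glial cells expanded from retinal organoids made from human induced pluripotent stem cells. Here the iMGCs at passage 5 (P5) were compared with those at passage 1 (P1), each collected on day 5 of the passage, to describe how the transcriptome of these glia changed with passaging. The comparison used 6 of the 15 libraries of the series, 3 of P1 iMGCs and 3 of P5 iMGCs. Both groups came from the BC1-GFP line of human induced pluripotent stem cells, a single GFP-marked line, through day 150 retinal organoids (D150-ROs), and grew on Matrigel in DMEM with 10% serum. No agent or allele separated the groups, so they differed by label only in passage number. The 3 libraries of a group were described as independent experiments, and nothing states whether P5 cells descended from the sequenced P1 cultures. The series was sequenced at a pair of companies with a correction between batches, and the sources used here do not say which libraries went where, so a batch that follows the passage cannot be told apart from the passage.

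Müller glia are the main support cells of the retina. They clear glutamate and potassium, recycle visual pigment for cones, and hold the layers together from the inner to the outer limiting membrane. Outside the retina, on a stiff surface in serum, Müller glia are known to spread, divide, build stress fibres and deposit extracellular matrix, while transcripts of their mature functions become scarce.

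Values after ± are SDs over 3 libraries unless marked SE. Depth was alike in both groups, with 16050334 to 17552818 expected counts per P1 library and 15147424 to 17688638 per P5 library, and 11223 to 11272 and 11212 to 11248 genes at 1 FPKM or more. FPKM counts fragments per kilobase of transcript, scaled to the mapped fragments of the library, so levels can be compared between genes. Mitochondrial transcripts made up 7.37% to 7.72% of each P1 library and 6.92% to 8.41% of each P5 library (exact permutation p = 0.8, two-sided). The 10 most abundant genes took 14.6% to 15.0% at P1 and 15.2% to 16.5% at P5 (exact permutation p = 0.1, the smallest that 3 against 3 libraries allow). Pearson's r over log2(FPKM + 1) of all genes was 0.997 for each of the 6 pairs of libraries within a passage and 0.992 to 0.993 for the 9 pairs between passages, a description across genes. The first principal component held 59.3% of the variance, with the P1 libraries at scores of -16.2 to -15.9 and the P5 libraries at 15.2 to 16.7.

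Of 11366 genes tested, 332 were differentially expressed genes (DEGs), which was 2.92%. A DEG had an adjusted p under 0.05 in edgeR's quasi-likelihood test and a change of at least 2-fold. Of these, 221 genes were upregulated at P5 (1.94%) and 111 were downregulated (0.977%). The median change of all tested genes was -0.0014 on the log2 scale, the median absolute change was 0.124, and 93.0% of genes stayed within 1.5-fold. Without the limit on fold change, 3485 genes passed the adjusted p (30.7%), 1891 of them higher (16.6%) and 1594 lower at P5 (14.0%), so most detectable changes were smaller than 2-fold. Matrix and stromal genes such as POSTN, FAP, THBS1 and ITGA11 were among the upregulated genes, and CNN1, MYL9, MEST and NES among the downregulated ones. At least 4-fold differences were found in 45 upregulated and 19 downregulated DEGs. Counts in the gene lists below are to be read beside the shares of all tested genes given here.

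The share of DEGs varied with expression level. They made up 5.76% of the 3228 tested genes with a mean of 1 to 5 FPKM, 1.34% of the 4855 genes at 5 to 20 FPKM, 1.13% of the 2658 genes at 20 to 100 FPKM and 2.12% of the 519 genes above 100 FPKM. The filter on low levels asked for 1 FPKM in 3 libraries, so a gene with a lower mean over all 6 libraries entered only when its libraries differed, and the 40 DEGs among 106 such genes are no evidence of a higher rate. Fold changes were taken from scaled counts, which ran 0.06 above the log2 ratio of FPKM means in the median gene, and for 25 DEGs the measures differed by more than 0.3. FPKM values of P1 and P5 did not overlap for 322 of the 332 DEGs and for 4488 of all tested genes (39.5%). On the 22 autosomes the median log2 fold change lay between -0.03 and 0.02, and in the 4 quartiles of transcript length between -0.01 and 0.01.

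**Figure D1:**
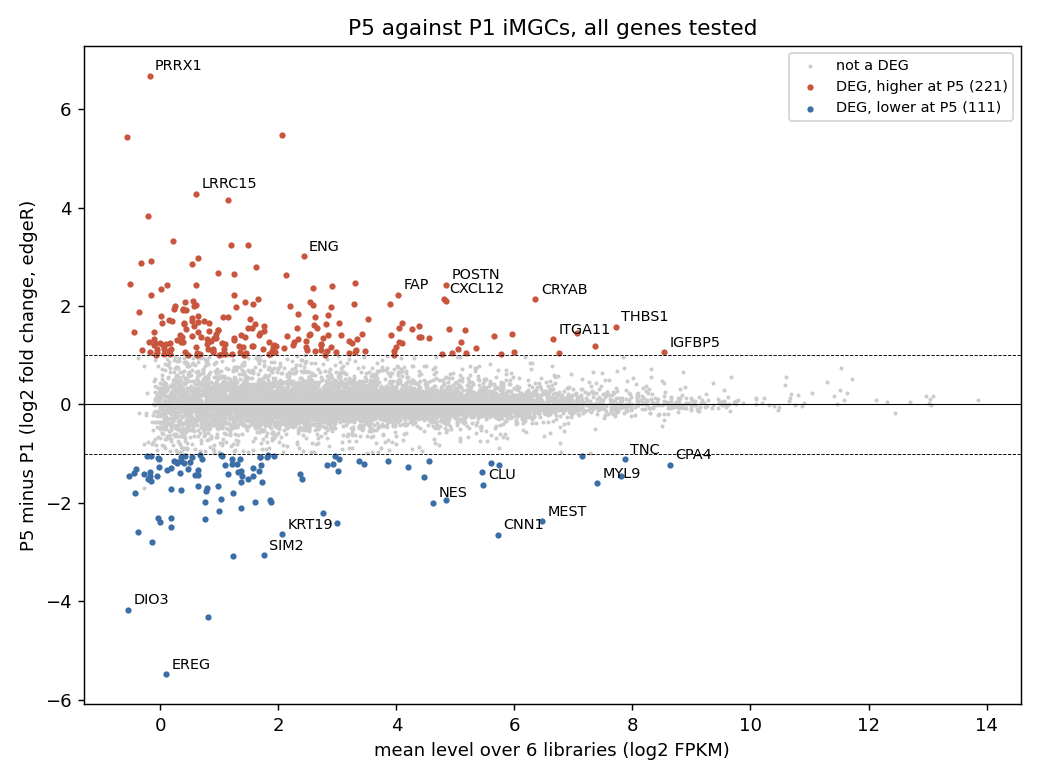
Each point is 1 of the tested genes, with the mean level over 6 libraries in log2 FPKM on the horizontal axis and the P5 minus P1 log2 fold change on the vertical axis. The 221 upregulated and 111 downregulated DEGs lie beyond the dashed 2-fold lines, and the most abundant genes lie near 0.

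The largest rises among DEGs of at least 5 FPKM, 13 of which are described, included ENG. ENG, which encodes endoglin, a co-receptor for TGF-β and BMP ligands, measured 1.17, 1.35 and 1.18 FPKM at P1 and 9.77, 10.3 and 8.55 FPKM at P5. Every P5 library was above every P1 library for ENG (log2 fold change 3.01 ± 0.11 (SE), adjusted p = 2.5e-16).

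Several of these genes encode secreted or surface proteins of connective tissue. POSTN, the matricellular protein periostin, measured 10.7, 8.77 and 8.46 FPKM at P1 and 46.0, 50.9 and 47.6 FPKM at P5 (log2 fold change 2.44 ± 0.07 (SE), adjusted p = 7.7e-19). FAP, a membrane peptidase of activated fibroblasts, measured 5.60, 6.80 and 6.28 FPKM at P1 and 27.0, 26.9 and 25.7 FPKM at P5 (log2 fold change 2.23 ± 0.06 (SE), adjusted p = 1.1e-18). Neither gene overlapped between passages, and the P5 libraries differed little among themselves. PCOLCE, which enhances procollagen cleavage, went from 2.47 to 12.6 FPKM, LAMA4, a laminin chain, from 2.09 to 9.94 FPKM, and ABI3BP, a matrix protein, from 1.10 to 7.65 FPKM in the mean. For ABI3BP the second P5 library stood at 11.3 FPKM and the other two at 5.87 and 5.78 FPKM, all above P1.

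The remaining rises had varied roles. CRYAB, a small heat shock protein that Müller glia express, measured 30.1, 27.8 and 32.7 FPKM at P1 and 128, 132 and 141 FPKM at P5 (log2 fold change 2.14 ± 0.06 (SE), adjusted p = 3.7e-19). CXCL12, a chemokine that acts on CXCR4, measured 9.51, 11.8 and 9.70 FPKM at P1 and 44.9, 47.7 and 43.3 FPKM at P5 (log2 fold change 2.15 ± 0.07 (SE), adjusted p = 5.5e-18). Both were above their P1 range in each P5 library. RARB, a retinoic acid receptor, went from 2.38 to 9.24 FPKM, CD24, a surface sialoglycoprotein, from 5.96 to 23.5 FPKM, TMEM178B from 1.20 to 5.07 FPKM and KRT81, a hair keratin, from 0.803 to 5.34 FPKM. KRT81 overlaps KRT86 on the other strand, and the counting is not stated to use strand, so its value is uncertain. AL035078.4 is uncertain too, since its exons lie in a region shared with PAX6 and RCN1, and its P1 libraries ranged from 0 to 7.61 FPKM. DESeq2 did not call it (log2 fold change 2.45, adjusted p = 0.34).

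The 15 largest falls among DEGs of at least 5 FPKM without overlap were led by SIM2, a bHLH-PAS transcription factor. SIM2 measured 5.83, 5.25 and 7.16 FPKM at P1 and 0.55, 0.66 and 0.78 FPKM at P5 (log2 fold change -3.06 ± 0.13 (SE), adjusted p = 4.1e-15). MEST, an imprinted gene expressed from the paternal allele that encodes a hydrolase-like protein, measured 147, 152 and 149.6 FPKM at P1 and 28.1, 27.2 and 28.1 FPKM at P5 (log2 fold change -2.37 ± 0.04 (SE), adjusted p = 1.8e-22). Both fell in every P5 library below the whole P1 range. NES, which encodes the intermediate filament nestin, measured 38.1, 41.0 and 39.6 FPKM at P1 and 9.82, 9.44 and 9.31 FPKM at P5 (log2 fold change -1.99 ± 0.05 (SE), adjusted p = 2.7e-20).

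Among the falls were KRT19, a keratin of simple epithelia, going from 7.25 to 1.09 FPKM and OCLN, which encodes the tight junction protein occludin, from 5.10 to 1.48 FPKM. LTBP1, which stores latent TGF-β in the matrix, went from 33.4 to 10.9 FPKM, and LOXL4, a collagen crosslinking oxidase, from 7.92 to 2.67 FPKM. BEX1 went from 45.8 to 11.5 FPKM, LYPD1 from 5.76 to 1.48 FPKM, MEDAG from 11.2 to 2.33 FPKM, GPRC5C from 6.12 to 1.20 FPKM and MMP23B, a membrane-bound metalloproteinase, from 13.6 to 2.39 FPKM. In all of the rises and falls described the 3 P1 and 3 P5 values did not overlap, as the rule for naming them required. The other members CNN1, MYL9 and CLU are described with their gene groups.

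**Figure D2:**
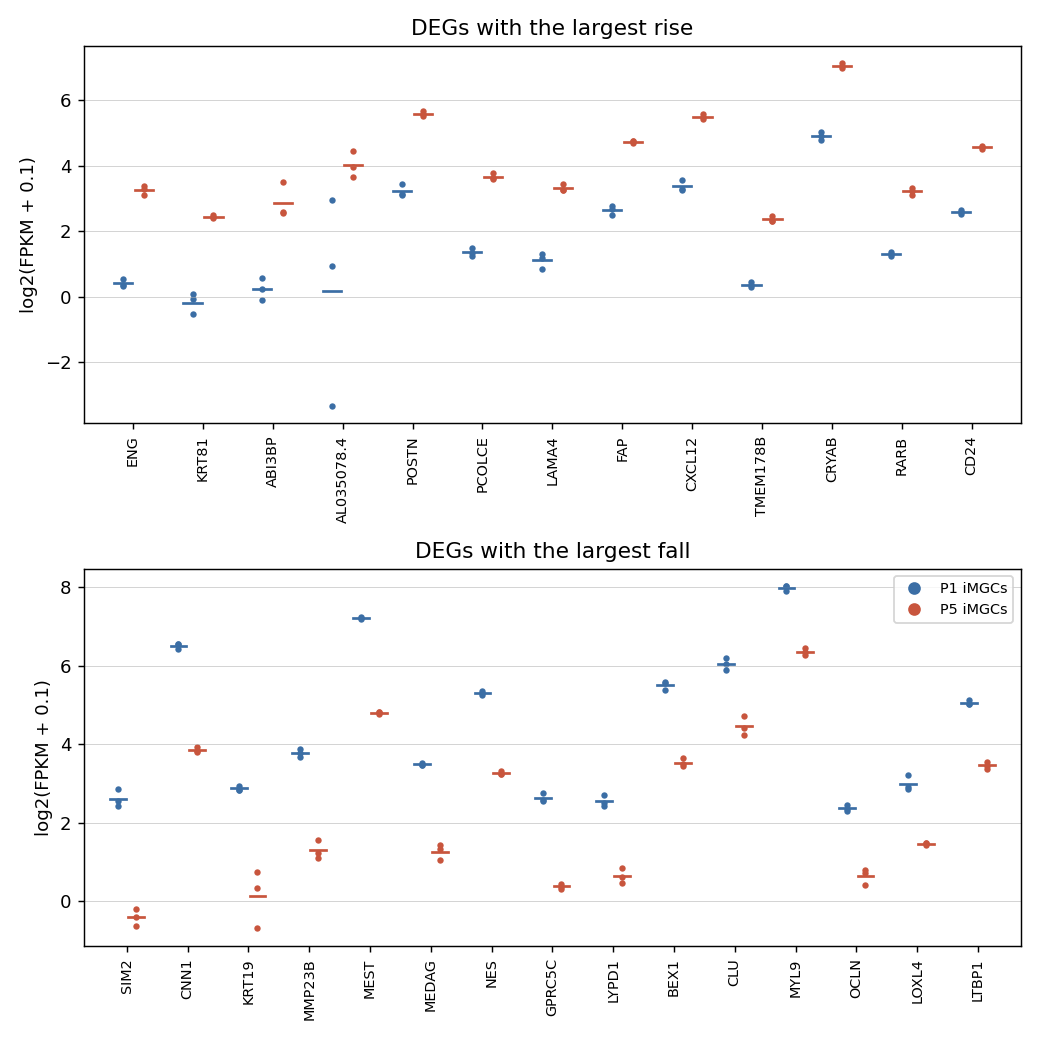
Points are single libraries and short bars are means, on a log2(FPKM + 0.1) axis, for 13 of the largest rises (upper panel) and the 15 largest falls (lower panel) in P1 (blue) and P5 (red) iMGCs. P1 libraries of ENG lie between 1.17 and 1.35 FPKM, and AL035078.4 shows the widest P1 spread.

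The 10 most abundant DEGs included secreted, filament and signalling genes. THBS1, which encodes the matricellular protein thrombospondin-1, measured 108, 108 and 109 FPKM at P1 and 313, 312 and 308 FPKM at P5 (log2 fold change 1.58 ± 0.03 (SE), adjusted p = 1.0e-20). IGFBP5, a secreted IGF-binding protein, measured 249, 233 and 259.7 FPKM at P1 and 473, 503 and 512 FPKM at P5 (log2 fold change 1.07 ± 0.04 (SE), adjusted p = 1.1e-15). CPA4, a secreted carboxypeptidase, measured 584, 565 and 538 FPKM at P1 and 236, 218 and 237 FPKM at P5 (log2 fold change -1.22 ± 0.04 (SE), adjusted p = 2.8e-18). Thrombospondin-1 and IGFBP5 transcripts were thus higher and CPA4 transcripts lower at P5, with no overlap. RGS4, which limits G protein signalling, went from 329 to 119 FPKM, TNC (tenascin-C) from 325 to 142 FPKM, KRT18 from 194 to 90.5 FPKM, ADGRG1, an adhesion receptor, from 72.2 to 196 FPKM, AKR1B1, aldose reductase, from 72.2 to 144 FPKM and UBB, a polyubiquitin gene, from 103 to 226 FPKM. UBB is made of repeated, near-identical ubiquitin units, so its count is uncertain.

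Some genes crossed from near absence to clear expression or back. With a limit of less than 0.5 FPKM in the 3 libraries of one passage and at least 1 FPKM in the 3 of the other, 12 genes passed at P5 only and 13 at P1 only. These limits were chosen after the values were seen. Every such gene passed the filter through 1 passage alone, so its direction was fixed by the filter. PRRX1, a homeodomain factor of limb and craniofacial mesenchyme, had 3 counts in all at P1 and 331 at P5 (0.01, 0 and 0.03 FPKM at P1 and 2.11, 1.48 and 1.65 FPKM at P5), a log2 ratio whose exact counting interval at 95% ran from 5.23 to 9.07. TINAGL1, a basement membrane glycoprotein, and LRRC15, a membrane protein of activated stroma, were in the same group, with 0.19, 0.15 and 0.11 FPKM at P1 and 3.30, 2.68 and 2.72 FPKM at P5 for LRRC15 (log2 fold change 4.28 ± 0.19 (SE), adjusted p = 4.9e-15). EREG, which encodes the EGF receptor ligand epiregulin, was in the other, with 2.33, 2.11 and 1.83 FPKM at P1 and 0.06, 0.04 and 0.03 FPKM at P5 (log2 fold change -5.48 ± 0.27 (SE), adjusted p = 6.0e-14). DIO3, an imprinted gene for the deiodinase that inactivates thyroid hormone, measured 1.27, 1.21 and 1.44 FPKM at P1 and 0.05, 0.06 and 0.09 FPKM at P5. The P5 values of EREG and DIO3 were all below 0.1 FPKM.

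Matrix genes were followed through 4 lists. In the list of basement membrane proteins and integrins, 24 of 32 genes were tested, and 4 were DEGs, all upregulated. By the adjusted p alone 20 of the 24 were higher and 3 lower, beside 16.6% and 14.0% of all tested genes, and the median log2 fold change was 0.33, beside -0.0014 over all genes. ITGA11, the collagen-binding integrin α11, measured 61.9, 59.1 and 58.5 FPKM at P1 and 143, 146 and 139.7 FPKM at P5 (log2 fold change 1.32 ± 0.04 (SE), adjusted p = 4.8e-18). LAMA4 measured 2.39, 1.69 and 2.20 FPKM at P1 and 10.8, 9.55 and 9.51 FPKM at P5 (log2 fold change 2.37 ± 0.08 (SE), adjusted p = 1.9e-17). Both lay above P1 in every P5 library. ITGB3, the β3 chain that pairs with αv, went from 20.6 to 47.5 FPKM and LAMB3 from 2.30 to 5.51 FPKM. The lower members were NID2 (-0.92), ITGA7 (-0.82) and ITGA2 (-0.76 on the log2 scale), and ITGB1, the common β1 chain, stood at 1778 ± 26.6 FPKM at P1 and 1696 ± 73.3 FPKM at P5 (adjusted p = 0.94).

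Matrix glycoproteins and proteoglycans moved both ways. Of 30 tested members of 42, 6 were upregulated and 3 downregulated DEGs, and the median log2 fold change was 0.33. TINAGL1 went from 0.27 to 4.15 FPKM (log2 fold change 4.16 ± 0.23 (SE), adjusted p = 3.6e-13), HAS2, a hyaluronan synthase, from 3.51 to 10.5 FPKM, and the other upregulated members were POSTN, THBS1, EFEMP1 and HAPLN1. TNC measured 323, 341 and 309 FPKM at P1 and 138, 147 and 141 FPKM at P5 (log2 fold change -1.11 ± 0.04 (SE), adjusted p = 1.1e-16), and LTBP1 and the small proteoglycan DCN (2.60 to 0.81 FPKM) fell with it. FN1, fibronectin, was the most abundant member, at 8339.7 ± 191 FPKM at P1 and 9061 ± 223 FPKM at P5, and rose by 0.17 on the log2 scale (adjusted p = 7.4e-04), far under 2-fold.

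Collagen chains and the enzymes that process them showed 4 upregulated and 2 downregulated DEGs among 33 tested genes of 39. Over all tested genes the shares were 1.94% and 0.977%. COL6A3 went from 5.52 to 12.8 FPKM (log2 fold change 1.28 ± 0.06 (SE), adjusted p = 4.9e-15), COL18A1 from 26.1 to 55.2 FPKM and P4HA3, a prolyl hydroxylase, from 1.09 to 2.55 FPKM. COL3A1, the fibrillar chain of type III collagen, measured 29.2, 25.7 and 24.4 FPKM at P1 and 10.3, 10.6 and 9.78 FPKM at P5 (log2 fold change -1.26 ± 0.06 (SE), adjusted p = 3.5e-14). It fell, while the other fibrillar chains COL1A2 (159.9 to 298 FPKM, 0.96 log2) and COL5A2 (58.2 to 99.4 FPKM, 0.84 log2) were higher at P5, below 2-fold. COL1A1 stood at 2000.3 ± 53.5 FPKM at P1 and 2216 ± 126 FPKM at P5 (0.23 log2) and COL4A1 at 947 ± 17.4 FPKM at P1 and 938 ± 1.83 FPKM at P5 (adjusted p = 0.47). The whole list summed to 6161 to 6346 FPKM at P1 and 6708 to 7102 FPKM at P5. By the adjusted p alone 19 genes were higher and 7 lower, beside 16.6% and 14.0% of all tested genes.

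Matrix proteases and their inhibitors gave 2 DEGs among 28 tested genes of 41, and both are inhibitors. TIMP3, the matrix-bound metalloproteinase inhibitor, measured 3.19, 3.51 and 3.14 FPKM at P1 and 11.7, 11.0 and 10.5 FPKM at P5 (log2 fold change 1.81 ± 0.07 (SE), adjusted p = 4.7e-16). SERPINE2, which inhibits thrombin and plasminogen activators, measured 15.1, 15.5 and 16.4 FPKM at P1 and 44.3, 42.8 and 43.4 FPKM at P5 (log2 fold change 1.53 ± 0.05 (SE), adjusted p = 3.6e-17). The P5 libraries of both were at about 3 times their P1 levels. TIMP1 (74.1 ± 3.71 FPKM at P1 and 71.6 ± 3.45 FPKM at P5; adjusted p = 0.91) and TIMP2 (174 ± 2.49 FPKM at P1 and 165 ± 0.665 FPKM at P5; adjusted p = 0.84) did not pass the test. Among the proteases of this list, MMP14 (0.33), PLAU (0.49) and MMP9 (0.65) were higher and MMP2 (-0.10 log2) was lower, all by less than 2-fold. Peptidase genes outside the list were DEGs in both directions, such as MMP23B (13.6 to 2.39 FPKM) and FAP (6.23 to 26.5 FPKM).

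**Figure D3:**
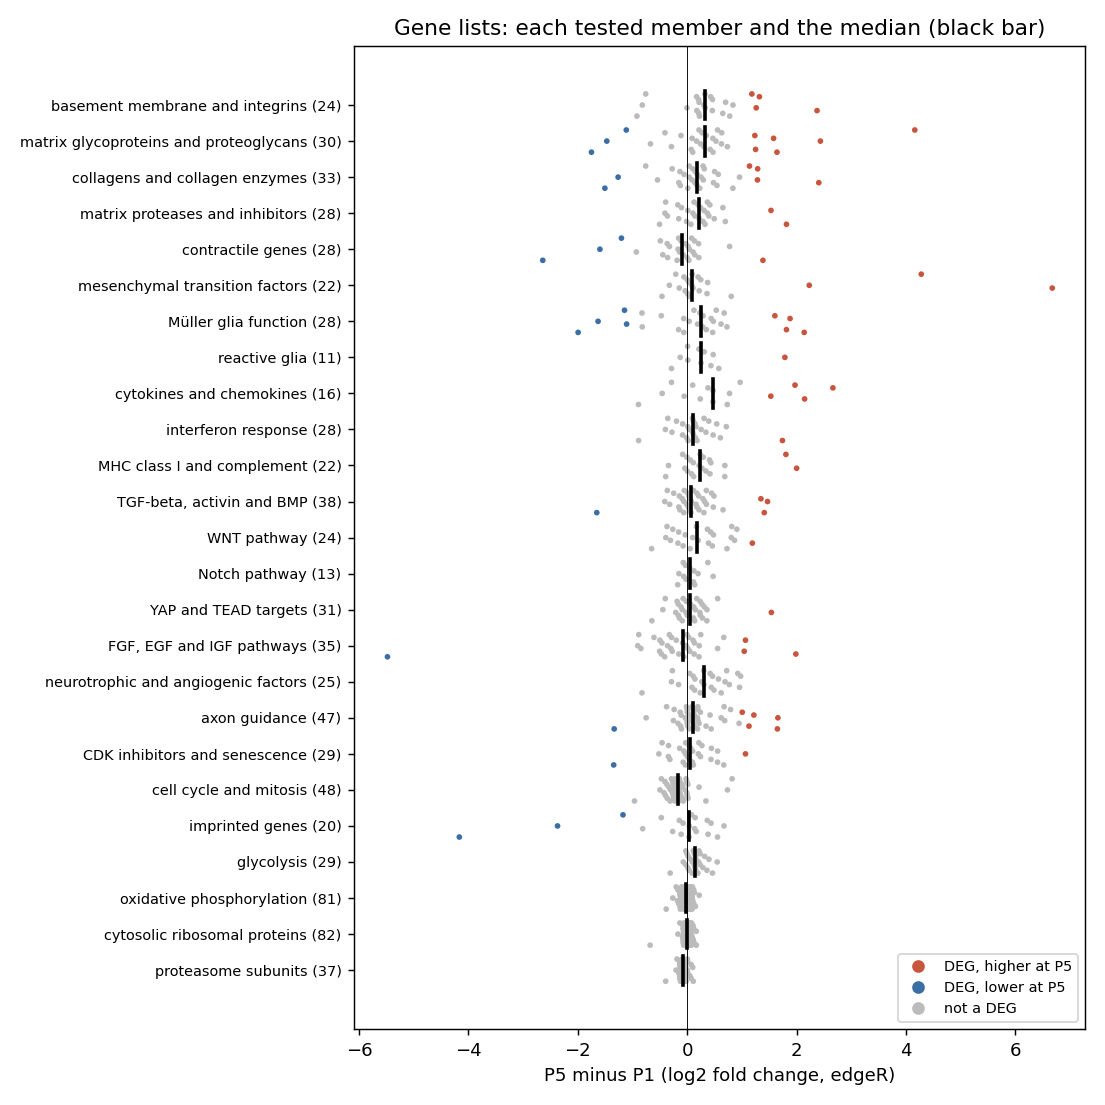
Each row is a gene list with its number of tested genes, each point a gene at its P5 minus P1 log2 fold change, red and blue for DEGs and grey for others, and the black bar the list's median. The median lies at 0.33 for basement membrane proteins and integrins and at -0.18 for cell cycle genes.

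The contractile genes moved in both directions. This list holds actin, myosin, calponin and tropomyosin genes of smooth muscle and myofibroblasts, many of which are known targets of serum response factor. Of 30 genes 28 were tested, 1 was an upregulated and 3 were downregulated DEGs (1.94% and 0.977% of all tested genes), and by the adjusted p alone 5 were higher and 11 lower, beside 16.6% higher and 14.0% lower of all tested genes, with a median log2 fold change of -0.09. Calponin 1, CNN1, measured 86.5, 93.6 and 93.8 FPKM at P1 and 14.2, 15.1 and 14.0 FPKM at P5 (log2 fold change -2.64 ± 0.06 (SE), adjusted p = 9.4e-21). MYL9, the regulatory light chain of non-striated myosin, measured 240.3, 263 and 263 FPKM at P1 and 78.0, 87.9 and 81.3 FPKM at P5 (log2 fold change -1.60 ± 0.05 (SE), adjusted p = 7.6e-18). CSRP1, a LIM protein that binds actinin, measured 28.3, 29.7 and 28.6 FPKM at P1 and 73.9, 73.9 and 69.1 FPKM at P5 (log2 fold change 1.38 ± 0.05 (SE), adjusted p = 3.3e-17). Calponin and the light chain thus fell and CSRP1 rose with no overlap between passages, and PDLIM3 went from 3.49 to 1.44 FPKM.

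Several abundant contractile transcripts stayed within 2-fold. TAGLN, which encodes transgelin, stood at 1940.5 ± 82.4 FPKM at P1 and 1823 ± 30.0 FPKM at P5 (log2 fold change -0.03, adjusted p = 0.65), CALD1 at 595 ± 31.7 FPKM at P1 and 589 ± 13.7 FPKM at P5 (adjusted p = 0.6) and TPM4 at 754 ± 5.73 FPKM at P1 and 716 ± 16.6 FPKM at P5 (adjusted p = 0.99). ACTA2, smooth muscle α-actin, was 0.21 higher on the log2 scale, at 256 ± 13.8 FPKM at P1 and 286 ± 7.31 FPKM at P5 (adjusted p = 4.0e-04). MYLK, the myosin light chain kinase, rose from 75.5 to 124 FPKM (0.77 log2), and ACTG2, enteric γ-actin, went from 426 to 300.3 FPKM (-0.45 log2). SRF itself stood at 19.3 ± 1.38 FPKM at P1 and 17.6 ± 1.21 FPKM at P5 (adjusted p = 0.37), and its coactivator gene MYOCD at 1.91 ± 0.0529 FPKM at P1 and 1.39 ± 0.136 FPKM at P5 (-0.37 log2). In the D150-ROs CNN1 measured 0.24 ± 0.108 FPKM and MYL9 1.28 ± 0.468 FPKM, from a table normalized apart.

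Upstream sequences are shown for 3 contractile genes because the list was built around serum response factor, whose binding motif is the CArG box, and these genes moved differently. The sequences are the 250 bases before 1 RefSeq start of each gene (GRCh38.p14), written 5′ to 3′ along the gene, with CArG boxes in capitals. The 54 RefSeq promoters of contractile genes belong to 25 genes, so a gene can have several starts. Fold changes are of the whole gene, and which start its transcripts used was not tested. ACTG2 (chr2:73892758-73893007, plus strand) is -0.45 and MYLK (chr3:123620549-123620798, minus strand) 0.77 on the log2 scale, and CNN1 (chr19:11538601-11538850, plus strand) holds no match in this window.
ACTG2: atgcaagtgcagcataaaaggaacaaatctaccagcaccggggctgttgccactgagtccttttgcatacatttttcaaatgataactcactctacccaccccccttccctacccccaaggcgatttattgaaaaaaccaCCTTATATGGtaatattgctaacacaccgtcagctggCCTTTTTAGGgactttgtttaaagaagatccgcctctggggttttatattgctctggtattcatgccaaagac
MYLK: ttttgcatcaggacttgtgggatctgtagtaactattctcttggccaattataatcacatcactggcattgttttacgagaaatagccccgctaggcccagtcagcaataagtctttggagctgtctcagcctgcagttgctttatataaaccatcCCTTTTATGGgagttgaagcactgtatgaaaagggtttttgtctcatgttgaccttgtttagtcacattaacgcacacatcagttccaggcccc
CNN1: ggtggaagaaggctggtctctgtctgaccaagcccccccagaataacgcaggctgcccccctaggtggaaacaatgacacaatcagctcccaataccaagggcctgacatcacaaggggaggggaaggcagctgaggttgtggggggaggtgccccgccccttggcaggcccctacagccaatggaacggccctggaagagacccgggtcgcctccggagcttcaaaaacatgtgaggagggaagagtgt
A match to the motif on 1 strand is also a match on the other, although the bases can differ. A box was found in 1.16% of all 35116 RefSeq promoters and in 24.1% of the 54 that belong to contractile genes. Of the tested contractile genes, 11 had a match, with log2 fold changes from -0.93 to 0.77 and no DEG, and 13 had a promoter in the table without one, with -2.64 to 1.38 and 3 DEGs. The table has no entry for 4 tested contractile genes, MYL9 (a DEG), TAGLN, DES and MYOCD, which stand outside this split. Starts outside this promoter set and sequence outside the 250 bases were not searched.

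**Figure D4:**
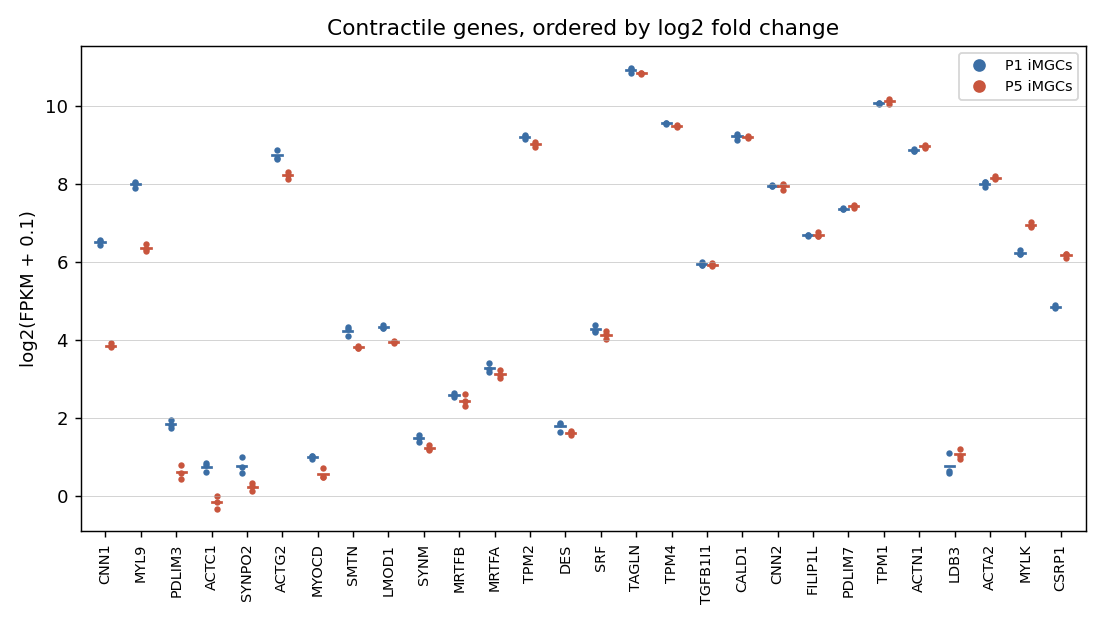
The 28 tested contractile genes are ordered by log2 fold change from left (lower at P5) to right (higher at P5), with each library as a point and the mean as a bar on a log2(FPKM + 0.1) axis. The P1 and P5 points part clearly for CNN1, MYL9 and CSRP1 and lie together for TAGLN, TPM4 and CALD1.

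The list of Müller glia genes was used to check the label. Of its 44 genes, 16 were under 1 FPKM in all 6 libraries. RLBP1, the retinaldehyde-binding protein CRALBP, was listed at 0 in 5 libraries and at 0.09 FPKM in the other, beside 33.5 ± 3.66 FPKM in the D150-ROs. The water channel AQP4, RGR, RAX and WIF1 were listed at 0 in every iMGC library, and the potassium channel KCNJ10 did not exceed 0.04 FPKM. SOX2 stood at 0.553 ± 0.136 FPKM at P1 and 0.637 ± 0.17 FPKM at P5. A count of 0 allows up to 3 counts in a library, counting error only. Several defining transcripts of the mature cell were thus at or near 0 at both passages, and the cells are called iMGCs here by their label. Vimentin, VIM, was abundant, with 2157, 2181 and 2141 FPKM at P1 and 2802, 2870.4 and 2901 FPKM at P5, and rose by 0.47 on the log2 scale (adjusted p = 1.2e-10).

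Among the 28 tested Müller glia genes, 4 DEGs rose and 4 fell, and by the adjusted p alone (beside 16.6% higher and 14.0% lower of all tested genes) 14 were higher and 8 lower. The risers were CRYAB, TIMP3, the glutamate transporter SLC1A3 and podoplanin, PDPN. SLC1A3 measured 0.37, 0.39 and 0.36 FPKM at P1 and 1.12, 1.22 and 1.23 FPKM at P5 (log2 fold change 1.88 ± 0.22 (SE), adjusted p = 2.1e-07), beside 28.0 ± 0.618 FPKM in the D150-ROs. The rise did not bring it near the level of the organoids. SLC1A3 was under 1 FPKM in every P1 library. It passed the filter through P5 alone and could be called only as a rise. The DEGs that fell were NES, CLU, CD9 and LHX2. CLU, the secreted chaperone clusterin, measured 59.0, 66.2 and 72.8 FPKM at P1 and 18.8, 26.1 and 21.3 FPKM at P5 (log2 fold change -1.63 ± 0.07 (SE), adjusted p = 2.1e-15). LHX2, a homeodomain factor of retinal progenitors and Müller glia, went from 3.10 to 1.97 FPKM, where the counts fell more than FPKM (log2 fold change -1.11 ± 0.17 (SE), adjusted p = 1.1e-05), and CD9 from 33.0 to 14.1 FPKM.

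Other Müller glia genes shifted by less than 2-fold or did not pass. SOX9, a transcription factor of Müller glia, measured 5.48, 4.98 and 5.17 FPKM at P1 and 3.47, 3.78 and 3.53 FPKM at P5 (log2 fold change -0.47 ± 0.09 (SE), adjusted p = 1.8e-04). Its P5 values were all below its P1 values, and both were below the D150-ROs (42.6 ± 3.81 FPKM). GLUL, which encodes glutamine synthetase, measured 14.6, 12.2 and 13.3 FPKM at P1 and 14.7, 15.2 and 13.8 FPKM at P5 (log2 fold change 0.19 ± 0.06 (SE), adjusted p = 0.019), and its passages overlapped. APOE measured 35.1, 40.9 and 35.6 FPKM at P1 and 34.1, 35.7 and 33.8 FPKM at P5 and did not pass the test (log2 fold change -0.06, adjusted p = 0.53). SPP1, osteopontin, went from 168 to 258 FPKM (0.68 log2), PAX6 from 30.7 to 43.9 FPKM (0.53 log2) and DKK3 from 246 to 390.0 FPKM (0.73 log2), all higher at P5.

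**Figure D5:**
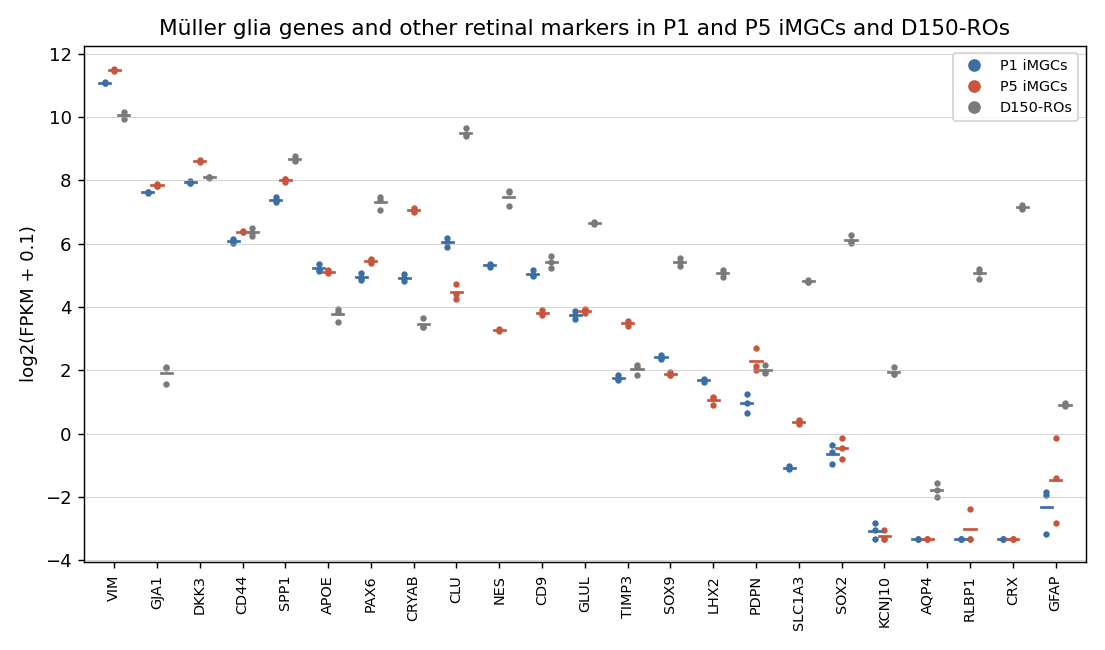
Points are single libraries and bars are means of P1 iMGCs (blue), P5 iMGCs (red) and D150-ROs (grey) on a log2(FPKM + 0.1) axis; values of the D150-ROs come from a table normalized apart and were not tested. VIM and GJA1 stand above the D150-ROs, while SOX9, GLUL, CLU and SLC1A3 stand below them at both passages.

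Marker lists of other retinal cells were summed in each library. The photoreceptor list summed to 13.7 to 17.2 FPKM at P1 and 17.4 to 19.3 FPKM at P5 (beside 3891 to 4207 FPKM in the D150-ROs), with 31 of 34 members under 1 FPKM in all libraries. CRX, of photoreceptors, was listed at 0 in the 6 libraries. The bipolar list summed to 16.7 to 17.3 FPKM at P1 and 14.5 to 14.8 FPKM at P5 (beside 804 to 876 FPKM in the D150-ROs). Of its 14 genes 9 were at 0 throughout and 2 were tested, of which 1 was lower by the adjusted p (-0.29 log2). The other was OTX2, a DEG, at 0.31, 0.29 and 0.25 FPKM at P1 and 1.34, 1.56 and 1.64 FPKM at P5 (log2 fold change 2.92 ± 0.31 (SE), adjusted p = 4.7e-08), far below the D150-ROs (447 ± 24.9 FPKM). OTX2 passed the filter through P5 alone and could be called only as a rise. The amacrine and horizontal list summed to 19.5 to 21.6 FPKM at P1 and 14.7 to 20.6 FPKM at P5 (beside 152 to 188 FPKM in the D150-ROs), the pigment epithelium list to 26.8 to 30.7 FPKM at P1 and 27.9 to 31.6 FPKM at P5 (beside 318 to 358 FPKM in the D150-ROs) and the ganglion cell list, nearly all THY1 and RBPMS, to 80.0 to 93.0 FPKM at P1 and 87.7 to 98.4 FPKM at P5 (beside 95.3 to 116 FPKM in the D150-ROs).

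Astrocyte and optic stalk genes summed to 1.04 to 1.36 FPKM at P1 and 2.25 to 3.01 FPKM at P5. Within that list PAX2 measured 0.14, 0.13 and 0.17 FPKM at P1 and 0.34, 0.35 and 0.51 FPKM at P5, and GFAP stayed below 1 FPKM with overlapping passages. S100B had 0 counts at P1 and 4 at P5. Of the microglia and blood cell list, only CD68, a lysosomal protein that many cells make, was tested (6.63 to 10.4 FPKM, 0.79 log2), and CX3CR1 had 1 count in all. CSF1R measured 0.37, 0.94 and 0.36 FPKM at P1 and 0.34, 0.32 and 0.30 FPKM at P5. Endothelial and pericyte genes summed to 195 to 201 FPKM at P1 and 220.5 to 227 FPKM at P5, carried by PDGFRB, RGS5, MCAM and CSPG4, and the pluripotency list to 7.63 to 9.10 FPKM at P1 and 3.71 to 4.39 FPKM at P5, where DNMT3B, a DNA methyltransferase, fell from 7.58 to 2.77 FPKM (log2 fold change -1.41 ± 0.09 (SE), adjusted p = 9.2e-12). The list of neural crest and Schwann cell genes summed to 0.96 to 1.42 FPKM at P1 and 0.79 to 1.20 FPKM at P5, that of cartilage and bone to 21.8 to 23.4 FPKM at P1 and 21.1 to 21.5 FPKM at P5 and that of fat to 43.3 to 45.1 FPKM at P1 and 41.7 to 43.6 FPKM at P5.

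Mesenchymal transcription factors and markers held 3 DEGs. Of 22 tested members of 32, PRRX1, LRRC15 and FAP were upregulated, beside 1.94% of all tested genes. The median log2 fold change was 0.09, and 14 did not pass the adjusted p. PRRX1 and LRRC15 were under 1 FPKM in every P1 library and passed the filter through P5 alone. The list was chosen with earlier results of these data known, so its count of rises is a description only. ZEB1 stood at 18.2 ± 0.236 FPKM at P1 and 19.7 ± 0.906 FPKM at P5 (adjusted p = 0.16) and N-cadherin, CDH2, at 182 ± 1.85 FPKM at P1 and 177 ± 8.79 FPKM at P5 (adjusted p = 0.99). TWIST1 was 0.80 higher and SNAI2 0.25 higher on the log2 scale. The HOX genes, markers of trunk identity, were under 1 FPKM in all libraries, 33 of 39 at 0.

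Cell cycle genes held no 2-fold change past the test. Of 48 tested cell cycle genes none was a DEG in the edgeR test (23 had an unadjusted p under 0.05, and DESeq2 called 0 and limma 0 or, with a pseudocount of 0.1, 1), 16 were lower and 4 higher by the adjusted p alone, beside 14.0% lower and 16.6% higher of all tested genes, and the median log2 fold change was -0.18. MKI67, which encodes the Ki-67 protein of dividing cells, measured 4.48, 3.73 and 4.31 FPKM at P1 and 3.27, 3.29 and 3.24 FPKM at P5 (log2 fold change -0.29, adjusted p = 9.8e-04). TOP2A (-0.21), CDK1 (-0.33), PLK1 (-0.40) and RRM2 (-0.31) were also lower, while the G1 cyclins CCND1 (0.22) and CCND2 (0.82) were higher on the log2 scale. In bulk libraries, fewer cycling cells and less transcript per cell cannot be told apart.

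The list of cell cycle inhibitors and senescence genes had 1 riser and 1 faller at 2-fold among 29 tested genes. IGFBP5 rose, and GDF15, a stress-induced TGF-β family member, measured 11.1, 12.1 and 11.8 FPKM at P1 and 4.30, 4.68 and 4.32 FPKM at P5 (log2 fold change -1.34 ± 0.12 (SE), adjusted p = 3.7e-09). CDKN1A (p21) stood at 287 ± 3.06 FPKM at P1 and 325 ± 3.84 FPKM at P5 (0.24 log2, adjusted p = 7.7e-06) and CDKN2A (p16 and p14ARF) at 31.4 ± 2.48 FPKM at P1 and 31.9 ± 4.96 FPKM at P5 (adjusted p = 0.63). CDKN2B was lower (-0.52), as was LMNB1 (-0.34), and GLB1, the lysosomal β-galactosidase, was higher (0.44 on the log2 scale).

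Cytokine and chemokine genes held DEGs in the upward direction. Of 39 genes only 16 were expressed enough to test, 4 were DEGs and all of these were upregulated (1.94% of all tested genes), and by the adjusted p alone 10 were higher and 3 lower, beside 16.6% higher and 14.0% lower of all tested genes, with a median of 0.47. IL6 measured 0.53, 0.40 and 0.88 FPKM at P1 and 2.93, 3.87 and 3.13 FPKM at P5 (log2 fold change 2.66 ± 0.32 (SE), adjusted p = 5.2e-07). TNFSF10, the death ligand TRAIL, measured 2.57, 3.67 and 3.12 FPKM at P1 and 12.4, 12.3 and 10.2 FPKM at P5 (log2 fold change 1.97 ± 0.12 (SE), adjusted p = 3.0e-12). Each P5 library exceeded each P1 library for both, and CXCL1 went from 0.707 to 1.99 FPKM. IL6 and CXCL1 were under 1 FPKM in every P1 library. They passed the filter through P5 alone and could be called only as rises. CCL2 was 0.48 higher on the log2 scale (11.2, 11.3 and 15.6 FPKM at P1 and 16.9, 17.0 and 17.0 FPKM at P5). LIF, a cytokine that Müller glia release, was lower by less than 2-fold (77.3 to 62.1 FPKM), as were IL11 (-0.46 log2) and CX3CL1 (-0.89 log2).

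The other defence gene lists held 1 or 2 DEGs each. In the interferon response list SAMD9 was the single DEG (1.36 to 4.34 FPKM, log2 fold change 1.74 ± 0.09 (SE), adjusted p = 2.0e-13) of 28 tested, and ISG15 did not pass (8.73 ± 2.39 FPKM at P1 and 6.56 ± 0.678 FPKM at P5, adjusted p = 0.18). Of the MHC class I and complement list, complement component C3 and factor I, CFI, which inactivates its cleaved form, rose, from 0.727 to 2.24 FPKM and from 0.723 to 2.39 FPKM, while B2M stood at 748 ± 9.89 FPKM at P1 and 746 ± 15.9 FPKM at P5 (adjusted p = 0.24). Reactive glia genes held 1 DEG of 11 tested, CHI3L1, at 0.59, 1.52 and 0.95 FPKM at P1 and 3.50, 3.63 and 3.02 FPKM at P5. Among interleukin and TNF receptors IL7R rose from 18.8 to 36.0 FPKM, close to the 2-fold limit, and TNFRSF10D, a decoy receptor of TRAIL, measured 68.2, 68.3 and 68.0 FPKM at P1 and 29.1, 28.1 and 29.2 FPKM at P5 (log2 fold change -1.18 ± 0.04 (SE), adjusted p = 2.3e-17). The decoy receptor fell while its ligand TNFSF10 rose.

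Growth factor genes of 1 family moved in opposite directions. In the list of FGF, EGF and IGF pathways, 35 of 54 genes were tested. Of these, 3 were upregulated and 1 downregulated, beside 1.94% and 0.977% of all tested genes. By the adjusted p alone 8 were higher and 13 lower, beside 16.6% and 14.0% of all tested genes. Of the EGF receptor ligands, TGFA measured 0.98, 1.01 and 0.79 FPKM at P1 and 4.69, 3.12 and 3.94 FPKM at P5 (log2 fold change 1.99 ± 0.16 (SE), adjusted p = 4.0e-10). NRG1, a ligand of ERBB3 and ERBB4, went from 24.6 to 48.0 FPKM, while EREG fell to near 0, as given above. HBEGF went from 70.6 to 36.6 FPKM (-0.89 log2) and EGF from 2.46 to 1.25 FPKM (-0.90 log2), and EGFR itself was -0.20 on the log2 scale. FGF1 (-0.85), FGF2 (-0.46) and FGFR1 (-0.30 log2) were lower, each by less than 2-fold.

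In the TGF-β, activin and BMP list, 3 of 38 tested genes were upregulated and 1 was downregulated, beside 1.94% and 0.977% of all tested genes. INHBB, an activin subunit, measured 2.82, 3.00 and 3.84 FPKM at P1 and 8.28, 8.53 and 7.87 FPKM at P5 (log2 fold change 1.41 ± 0.10 (SE), adjusted p = 5.9e-11), the co-receptor TGFBR3 went from 0.83 to 2.29 FPKM and the ligand GDF5 from 1.11 to 2.72 FPKM. NOG, which encodes the BMP antagonist noggin, measured 2.44, 2.27 and 2.47 FPKM at P1 and 0.69, 1.11 and 0.35 FPKM at P5 (log2 fold change -1.65 ± 0.26 (SE), adjusted p = 1.8e-05). TGFB1 stood at 51.3 ± 0.574 FPKM at P1 and 48.6 ± 3.31 FPKM at P5 (adjusted p = 0.92), and INHBA, the other activin subunit, was lower (108 to 80.9 FPKM, -0.36 log2).

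Trophic factors that Müller glia supply to neurons and vessels had no DEG by edgeR, DESeq2 or limma, where 2.92% of all tested genes were DEGs, with 21 at an unadjusted p under 0.05, but 17 of 25 tested genes were higher and 4 lower by the adjusted p alone, beside 16.6% higher and 14.0% lower of all tested genes, with a median of 0.31. VEGFA went from 35.0 to 43.9 FPKM (0.42 log2) and VEGFC from 12.1 to 19.1 FPKM (0.72 log2). BDNF was lower (-0.16 log2), and GDNF stood at 6.50 ± 1.51 FPKM at P1 and 6.20 ± 0.495 FPKM at P5 (adjusted p = 0.27).

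WNT pathway genes had 1 DEG of 24 tested, TCF7L1, from 1.86 to 4.07 FPKM, with DKK1 (0.91) and FZD7 (0.81) higher and WNT5A (-0.65 log2) lower. Notch pathway genes had none of 13 by edgeR, DESeq2 or limma (5 at an unadjusted p under 0.05). Of the 13, 3 passed the adjusted p and all were higher, beside 16.6% higher of all tested genes. HES1 stood at 5.38 ± 0.36 FPKM at P1 and 4.93 ± 0.456 FPKM at P5 (adjusted p = 0.76). YAP and TEAD targets had 1 of 31, F3, tissue factor, from 10.2 to 28.3 FPKM.

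Axon guidance genes included 5 upregulated DEGs and 1 downregulated DEG among 47 tested, beside 1.94% and 0.977% of all tested genes. SEMA3F, a secreted repellent, measured 8.47, 8.35 and 9.65 FPKM at P1 and 24.5, 27.9 and 23.9 FPKM at P5 (log2 fold change 1.65 ± 0.07 (SE), adjusted p = 1.5e-15), and the plexin receptor PLXNA4 went from 0.687 to 1.95 FPKM. The netrin receptor UNC5C went from 0.677 to 1.45 FPKM and PLXNA2 from 1.82 to 3.51 FPKM, and EFNA2 (0.737 to 1.54 FPKM) was called with overlapping passages, and not by DESeq2 (adjusted p = 0.051). SLIT2, a secreted repellent, went from 1.61 to 0.54 FPKM. PLXNA4 and UNC5C were under 1 FPKM in every P1 library and SLIT2 in every P5 library. They passed the filter through the other passage alone and could be called only 1 way, so the list's count is a description only. Among potassium channels, KCNJ16, an inward rectifier subunit that pairs with KCNJ10, measured 0.50, 0.41 and 0.65 FPKM at P1 and 4.20, 3.86 and 4.16 FPKM at P5 (log2 fold change 3.23 ± 0.16 (SE), adjusted p = 3.6e-14). KCNJ16 rose while KCNJ10 was near 0 at both passages, and KCNJ8 went from 1.81 to 4.91 FPKM and KCNC4 from 1.09 to 1.97 FPKM. KCNJ16 also passed the filter through P5 alone and could be called only as a rise.

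Adhesion receptors ADGRG6 (8.75 to 24.2 FPKM) and ADGRL4 (2.57 to 7.36 FPKM) rose, and GPR183 (1.96 to 0.573 FPKM), ADGRE5 (4.19 to 1.39 FPKM) and ADGRL3 (1.77 to 0.783 FPKM) fell. Of the solute carriers, 200 were tested and 3 were DEGs, SLC1A3 as given above, SLC38A5, a glutamine transporter, with 4.87, 3.56 and 4.00 FPKM at P1 and 0.46, 0.51 and 0.60 FPKM at P5 (log2 fold change -3.08 ± 0.23 (SE), adjusted p = 1.3e-10), and SLC44A5 (1.70 to 0.713 FPKM). In the imprinted gene list all 3 DEGs of 20 tested fell (0.977% of all tested genes), namely DIO3, MEST and NLRP2 (1.52 to 0.897 FPKM). DIO3 passed the filter through its P1 libraries alone. By the adjusted p alone 5 imprinted genes were higher and 6 lower. PEG10 was higher (32.1 to 48.7 FPKM, 0.67 log2), and GRB10 and PLAGL1 did not pass (adjusted p = 0.26 and 0.76). Keratins split as well, with KRT18 and KRT19 lower and KRT81 higher, and KRT8 lower by less than 2-fold (-0.73 log2).

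Genes of the machinery shared by all cells held no DEG. None of 82 cytosolic ribosomal protein genes, 81 nuclear genes of oxidative phosphorylation, 13 mitochondrially encoded genes, 37 proteasome subunits, 29 glycolysis genes or 33 genes of cholesterol and fatty acid synthesis was a DEG by edgeR, DESeq2 or limma. An unadjusted p under 0.05 was reached by 10, 7, 5, 9, 18 and 16 of them. Over all tested genes 2.92% were DEGs, and at that share a single list of 13 to 37 genes may hold none without being unusual. Their medians were -0.0037, -0.02, 0.09, -0.07, 0.14 and -0.03 on the log2 scale, in that order. Glycolysis genes moved by small steps, 16 of 29 being higher by the adjusted p alone, beside 16.6% of all tested genes. LDHA was lower (413 to 324 FPKM, -0.31 log2). In the proteasome list 7 genes passed the adjusted p and all were lower, beside 14.0% lower of all tested genes.

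The last lists held 1 to 3 DEGs each. The calls of CAT, HIST1H2BC and ZNF667 below rest on changes close to 2-fold and were lost when single libraries were left out. Catalase, CAT, fell (4.82 to 2.25 FPKM) and GSTM1 rose (1.17 to 2.51 FPKM) among 29 antioxidant and metallothionein genes, the latter in a family of near-identical genes where counts may be split. In the heat shock list CRYAB rose and its relative HSPB6 fell (1.32 to 0.207 FPKM), while 22 of 35 genes did not pass. HIST1H2BD and HIST1H2BC rose, from 2.82 to 5.73 FPKM and 2.48 to 4.77 FPKM, and these 2 histone genes also have near-identical copies. Of 405 zinc finger genes 2 were DEGs, ZNF667 (1.11 to 1.95 FPKM) and ZNF311 (1.09 to 0.417 FPKM). PCDH1 (1.17 to 2.57 FPKM) and PCDHGC5 (4.68 to 9.48 FPKM) rose and PCDHB16 (4.00 to 1.14 FPKM) fell among 28 cadherin genes, where PCDHGC5 shares its last exons with a gene cluster. SLITRK4 rose from 0.783 to 2.19 FPKM among 9 neuronal adhesion genes.

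The DEGs were also set beside their levels in the D150-ROs, the tissue of origin, as a description with no test. The D150-ROs hold many retinal cell types. The same split over all tested genes was not made, so the counts cannot be called particular to the DEGs. Of the 221 upregulated genes, 62 had a higher mean FPKM in the D150-ROs than at either passage, 42 lay between the passages and 117 were below both. Of the 111 downregulated genes, 49 were above both passages in the D150-ROs, 15 between and 47 below both. NES (181 ± 32.1 FPKM), CLU (727 ± 68.5 FPKM) and BEX1 (231 ± 47.7 FPKM) fell further from the organoid level with passage, while POSTN (0.143 ± 0.0737 FPKM), THBS1 (3.57 ± 0.747 FPKM) and ITGA11 (0.137 ± 0.00577 FPKM) rose away from it. CNN1, MYL9 and CPA4 (0.73 ± 0.715 FPKM), at low levels in the organoids, came down from a high level at P1.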

How the data were processed

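Poly(A) RNA-seq of P1 and P5 iMGCs was analysed (3 libraries each). The authors used HISAT2 for mapping, StringTie for assembly and RSEM for quantification (submitters' processing notes and methods), and deposited expected counts and FPKM per gene; versions, genome build and annotation are not given in the sources used here. All 19684 gene identifiers matched GENCODE release 29, used for names, chromosomes and lengths only. The 6 iMGC columns of another table that name no passage were not used. D150-RO FPKM came from another table, normalized separately.

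Expected counts were rounded and tested with edgeR 4.0.16 (R 4.3.3; TMM scaling, quasi-likelihood, P5 against P1, no covariate) on genes with at least 1 FPKM in 3 libraries, with Benjamini-Hochberg adjustment. A gene under 1 FPKM in every library of 1 passage passed this filter through the other alone. Its call could go only 1 way. Besides the genes marked above, this held for KRT81, CFI, TGFBR3, HAVCR1 and APBB1IP among the rises. Among the falls it held for SIM2, SLC38A5, SLC44A5, GPR183, ADGRL3, HSPB6, ZNF311 and GABRA2. DEG limits were an adjusted p under 0.05 and 2-fold. Fold changes are from counts, levels in FPKM. On simulated data of these libraries edgeR recovered 100% of 200 genes changed 4-fold, with 0 false calls, as did DESeq2 1.42.0, and limma 3.58.1 recovered 96.5%. The changed genes were drawn from those above a floor of mean counts, and all others were simulated without change. Recovery of weak genes or of changes near 2-fold was not tested. Alternatives were other scalings and filters, DESeq2, limma on log2(FPKM + 1 or 0.1), a test against 2-fold, a replicate block and leaving out each library.

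The 51 gene lists and the naming rule were chosen with earlier results of these data known: the 15 largest rises and 15 largest falls among DEGs without overlap and with at least 5 FPKM, the 10 most abundant DEGs, up to 4 DEGs per list and direction, and the study's markers. Other genes with values were chosen after their values were seen. In all 3 list symbols had no row. Some items the rule names are not reported here. Libraries of one passage differed by more than sampling noise (chi-square per gene 2.33 to 6.24), so none was a re-sequenced copy of another. This does not test whether they came from separate cultures. P-values measure the spread between these libraries. Counting intervals cover counting error only.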

Additional observations from a re-analysis of the deposited data

How the results depend on the processing

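The number of DEGs was 332 as reported. It was 333 with upper-quartile scaling, 332 with relative log expression scaling, 327 with DESeq2 and 291 with limma at a pseudocount of 0.1, and 332, 332, 327 and 275 of these, in that order, were among the reported DEGs. Without the filter 694 genes passed (409 higher, 285 lower at P5; 16194 tested, 331 shared), and with a filter of 5 FPKM 120 passed (88 higher, 32 lower; 120 shared), as more or fewer weak genes entered. With limma at a pseudocount of 1, which shrinks fold changes of weak genes, 152 passed (96 higher, 56 lower; 148 shared). A test against a 2-fold change called 161 (116 higher, 45 lower; 161 shared). Leaving out 1 library gave 327 to 346 DEGs (215 to 226 higher, 112 to 122 lower); 190 of 221 upregulated and 93 of 111 downregulated DEGs were called without each library in turn. Calls were lost for CAT (-0.98 without P1 replicate 2 and -0.95 without P5 replicate 3), HIST1H2BC (0.76 and 0.97 without the same), IL7R (0.96 without P1 replicate 1 and 0.96 without P5 replicate 3), ZNF667 (0.85 without the first P1, 0.82 without the first P5 and 0.999 with the replicate block) and EFNA2 (adjusted p = 0.062, 0.083, 0.063 and 0.057 without P1 replicate 1 or 3, or P5 replicate 1 or 2). Of 125 named genes, 34 lost the call with limma at a pseudocount of 1, 11 at 0.1 and 33 in the test against 2-fold. APOE, which did not pass the test, was -0.06 on the log2 scale and ran from -0.11 to 0.02 with 1 library left out, turning to 0.016 without the second P1 library.

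Whether replicate numbers pair the libraries was not settled. Deviations of equal numbers correlated at 0.04, 0.02 and 0.04 between passages, and those of unequal numbers at -0.06 to 0.02. Each P5 library correlated best with the P1 library of its own number, while P1 replicate 2 correlated best with P5 replicate 3. With a replicate block 333 DEGs were called (222 higher, 111 lower), 330 of them shared. The first principal component held 59.3% of the variance on log2(FPKM + 1), 52.6% without the log, 39.4% with each gene scaled to unit variance, 63.6% over genes past the filter and 61.2% to 62.4% without 1 library. At low levels the depth limits precision, and 7948 genes stayed under 1 FPKM in all 6 libraries.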

Other observations

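Transcription factor genes beyond those named above were looked at after their values were seen. PAX8, a paired-box factor of thyroid, kidney and inner ear, went from 10.8 to 20.1 FPKM (1.00 log2, at the 2-fold limit), SALL1, a zinc finger factor, from 0.76 to 1.84 FPKM, STAT6, which carries interleukin-4 signals, from 0.707 to 4.92 FPKM, and EPAS1, the hypoxia-inducible factor HIF-2α, from 19.3 to 52.4 FPKM. GATA6, an endoderm and mesoderm factor, measured 3.08, 3.59 and 2.95 FPKM at P1 and 0.69, 1.08 and 0.85 FPKM at P5 (log2 fold change -1.92 ± 0.15 (SE), adjusted p = 3.3e-10). Each of these 5 genes was a DEG, and their passages did not overlap, as for 322 of the 332 DEGs.

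Among receptors, GABRA2, a subunit of GABA type A receptors, measured 3.02, 3.63 and 3.32 FPKM at P1 and 0.09, 0.26 and 0.13 FPKM at P5 (log2 fold change -4.31 ± 0.23 (SE), adjusted p = 1.8e-13), the second largest fall of all tested genes. HAVCR1, a phosphatidylserine receptor, went from 0.107 to 1.62 FPKM and APBB1IP, an adaptor that activates integrins, from 0.0267 to 1.32 FPKM, both at low levels.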
